A study of Saccharomyces cerevisiae with 48 samples.

Results

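The first 11 samples taken after phenelzine was added to an oscillating yeast culture were compared with the 11 control samples taken before it. Each phenelzine sample was paired with the control sample of the same number, which by the labelled hours lay 44 min earlier. These were 22 of the 48 arrays of the series, and the other 26 phenelzine arrays, from later cycles, were not in the comparison. A single fermenter of Saccharomyces cerevisiae IFO0233, whose oscillation usually has a period of 40 to 45 min, supplied every sample, at intervals of 4 min, and the RNA was hybridised to Affymetrix Yeast 2.0 arrays. The control group was the same culture without phenelzine from 13.833 to 14.5 h after inoculation, by the labels, and the phenelzine group was that culture from 14.567 to 15.233 h. These labelled hours lie before those at which the growth protocol places the usual start of oscillation. Phenelzine is a hydrazine inhibitor of monoamine oxidases that is used as an antidepressant. Its dose is not given in the sources used here, and the stated purpose of adding it was to double the period. There was 1 fermenter, so replication was over time points, and a p-value speaks for the variation among them and not among cultures. The comparison lacked a parallel culture without the drug, so an effect of phenelzine and a drift of the culture with time cannot be told apart.

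In continuous culture under aeration, budding yeast alternates between a phase of high oxygen uptake and a phase in which respiration is low. Much of the transcriptome follows this alternation. Genes for building ribosomes peak at one point of it, and genes for mitochondria, reserve carbohydrates and stress protection peak at others. When glucose is scarce, cells induce gluconeogenesis, the glyoxylate cycle and the storage of glycogen and trehalose, and the transcription factors Msn2 and Msn4 switch on a general stress programme. Genes for ribosome assembly are turned down under those conditions in this species.

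Measures of signal and RNA quality overlapped between the groups. Per array, the median signal intensity lay from 44.1 to 71.2 in control arrays and from 36.9 to 76.7 in phenelzine arrays. The probe sets for fission yeast, which this culture cannot supply, had a median log2 level of 1.19 to 2.32 in control arrays and 1.29 to 2.32 in phenelzine arrays. The log2 ratio of 3′ to 5′ ACT1 probe sets, a check on RNA integrity, was 0.42 ± 0.09 (SD, n = 11) in control and 0.35 ± 0.14 (SD, n = 11) in phenelzine arrays. Of 5498 budding yeast probe sets, 5372 (for 5332 genes) were bright enough to be tested. Within pairs, the ACT1 ratio was lower after phenelzine in 9 of 11 and higher in pair 9 (0.60 against 0.41) and pair 10 (0.55 against 0.46). Median intensity was higher after phenelzine in 5 pairs and lower in 6, among them pairs 7 to 11. In its array name phenelzine sample 11 carries a number 2 where the other arrays compared carry 1. The part of these measures and of this label in the results was not tested. The number of arrays limits the precision.

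A lag of 44 min brought the samples of a pair nearest to the same point of the cycle. The root mean square difference over tested probe sets was 0.297 on the log2 scale at 44 min, against 0.352 at 40 min and 0.351 at 48 min. The match was not exact. The phase read from the first principal components, which held 47.6% and 19.3% of the variance of all 48 arrays, was ahead of a full cycle by 0.57 to 1.32 min in pairs 1 to 5. It fell short by 2.45 min in pair 6, was ahead by 2.50 min in pair 7, and fell short by 0.63 to 1.85 min in pairs 8 to 11. In what follows, a position in the cycle is given in minutes after the first phenelzine sample, from 0 for pair 1 to 40 for pair 11.

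**Figure D1:**
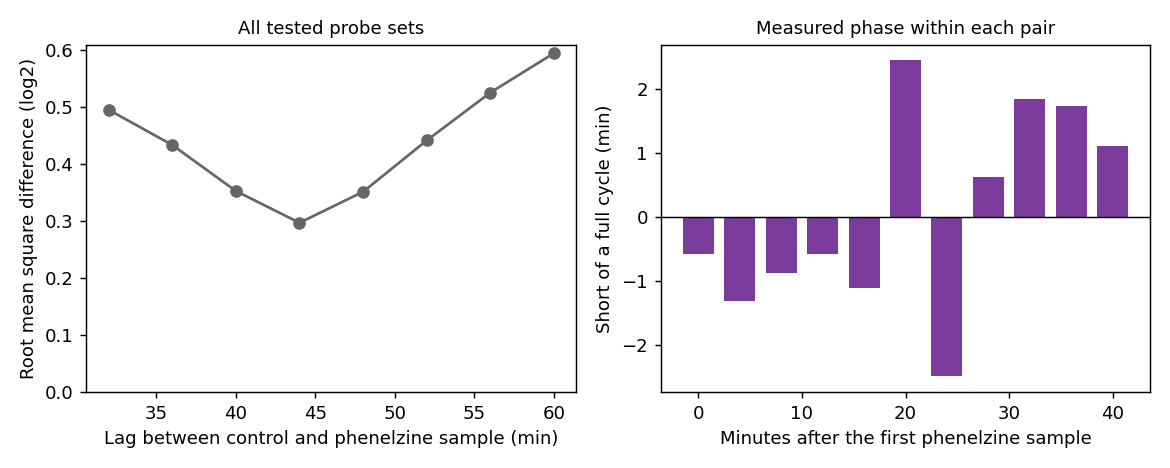
Left, root mean square difference (log2) over tested probe sets between control and phenelzine samples, plotted against the lag between them in minutes; the lowest point, 0.297, is at 44 min. Right, by how many minutes each of the 11 pairs fell short of a full cycle (negative values: ahead), plotted against the position of the phenelzine sample; pair 6, at 20 min, fell short by 2.45 min and pairs 8 to 11 by 0.63 to 1.85 min.

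Differences between the cycles were small and went both ways. In the paired limma test with Benjamini-Hochberg adjustment, 456 probe sets passed at an adjusted p under 0.05, 8.49% of those tested, and 26.8% had an unadjusted p under 0.05. Of the 456, 217 were higher after phenelzine (4.04%) and 239 were lower (4.45%). The median difference was 0.21 among the higher and -0.20 among the lower probe sets on the log2 scale, and 5 probe sets differed by more than 1.5-fold. The groups of 11 samples, each spread over a whole cycle, overlapped for every called probe set but 1, that of YPR071W. Yet, among the 456 called, 50 probe sets were lower in all 11 pairs and 42 were higher in all 11. Agreement across pairs is part of what the paired test selects, and neither this agreement nor overlap was counted over all tested probe sets. The median over all tested probe sets was -0.01.

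These counts depended on scaling and on alignment. The values as deposited, without quantile normalization, had a median difference of -0.13 over tested probe sets, and 22 were then called higher and 926 lower. With columns centred on their median the counts were 206 and 191. Pairs 40 min apart gave 4 calls (0.0745%) and pairs 48 min apart 9 (0.168%). With the measured phase as a covariate 44 probe sets were called, 22 in each direction, 39 of them among the 456. The count was 294 without pair 2, 221 without pair 3, 226 without pair 5, 181 without pair 7, 161 without pair 8 and 300 without pair 9. With the stretches described further on (pairs 1 to 4, 5 to 8 and 9 to 11) as a random block, with an estimated correlation of 0.20, 6 probe sets were called. Of the lists that follow, stress and gluconeogenesis genes then had 2 calls each, and 0 were called among ribosome biogenesis, glycogen and trehalose, heat shock, RNA polymerase, purine and cytosolic ribosomal protein genes. Without the pair as a block 1 probe set, that of YPR071W, was called. Each of the 456 kept its direction at both other lags, which share most of the arrays.

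Genes for using acetate and making glucose were lower in the phenelzine cycle. Of 16 genes of gluconeogenesis and the glyoxylate cycle, 9 fell and none rose, against 4.45% of all probe sets falling, and the list's median difference was -0.18. PCK1, phosphoenolpyruvate carboxykinase and the committed step of gluconeogenesis, had control levels from 7.61 to 11.89 with a median of 9.06, and phenelzine levels from 6.90 to 10.74 with a median of 8.29. PCK1 swings widely within a cycle and the ranges overlapped, yet the phenelzine sample was the lower in all 11 pairs. The fall was 1.70-fold (difference -0.77, SE 0.11, adjusted p = 0.0042 in the limma test). It was widest at 0 and 4 min, at -1.68 and -1.48, and narrowest at 40 min, at -0.21.

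ADY2, an acetate transporter, ran from 7.68 to 11.40 in control samples (median 9.33) and from 7.30 to 11.04 in phenelzine samples (median 8.93). With overlapping ranges, it too was lower in all 11 pairs, and its difference was -0.47 (SE 0.06, adjusted p = 0.0013 in the limma test). Other members that fell were MDH2, the cytosolic malate dehydrogenase, by 0.37, ACS1, an acetyl-CoA synthetase, by 0.30 and ICL1, the isocitrate lyase of the glyoxylate cycle, by 0.27. SFC1, a mitochondrial succinate and fumarate carrier, fell by 0.23, and 3 genes of the carnitine shuttle for acetyl groups, CRC1, CAT2 and YAT2, fell by 0.12 to 0.17. The mean level of this list was lowest at -20 min in control and at 24 min in phenelzine samples. It was highest at -8 min in control samples and at 40 min, the last sample compared, in phenelzine samples. With any 1 pair left out between 6 and 10 members were called. With the measured phase as a covariate 3 were, and PCK1 was among them with a difference of -0.84 (adjusted p = 0.033 in limma).

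**Figure D2:**
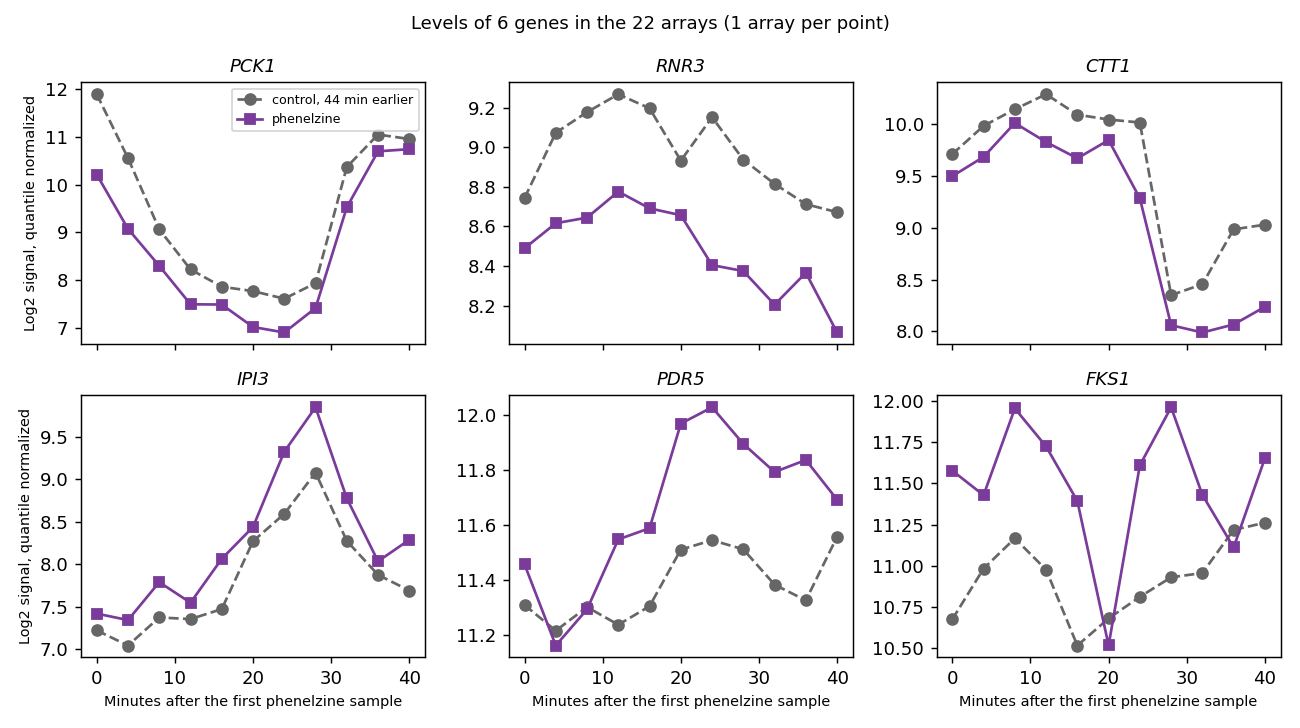
Log2 signal after quantile normalization of 6 genes in the 11 control samples (grey circles, dashed) and the 11 phenelzine samples taken 44 min later (purple squares), 1 array per point, against minutes after the first phenelzine sample. PCK1, RNR3 and CTT1 were lower in all 11 phenelzine samples than in their partners, IPI3 was higher in all 11, and PDR5 and FKS1 were higher in 9 of 11.

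Genes of the general stress programme and of reserve carbohydrates were lower as well. Of 33 genes listed as targets of Msn2 and Msn4, 14 fell (42.4%, against 4.45% of all probe sets) and none rose. The list's median difference was -0.16. CTT1, the cytosolic catalase, ran from 8.35 to 10.29 in control samples (median 9.98) and from 7.99 to 10.01 in phenelzine samples (median 9.50). Despite the overlap, CTT1 was lower in all 11 pairs, with pair differences from -0.92 to -0.13, and its mean difference was -0.45 (SE 0.07, adjusted p = 0.0049 in the limma test). SOL4, a 6-phosphogluconolactonase, fell by 0.41 and TFS1, an inhibitor of carboxypeptidase Y, by 0.37. The others were SPI1, PNS1, DCS2, PNC1, OM45, RTN2, GRE3, YGP1, DCS1, GLK1 and OM14, with falls of 0.11 to 0.33. HSP12, a small heat shock protein often used as a reporter of this programme, had a difference of -0.22 that did not pass (adjusted p = 0.14 in limma). Between 8 and 15 members were called with 1 pair left out, the lowest count without pair 7, and 3 with the measured phase as a covariate.

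In the glycogen and trehalose list 7 of 20 genes fell (35%, against 4.45% of all probe sets) and none rose. Of the 20, 19 had a difference below 0. TSL1, a regulatory subunit of the trehalose synthase complex, fell by 0.39 and was lower in all 11 pairs. Its catalytic partners TPS1 and TPS2 fell by 0.26 and 0.21. On the glycogen side, both glycogen synthases fell, GSY1 by 0.34 and GSY2 by 0.25, as did the branching enzyme GLC3 by 0.23 and the phosphoglucomutase PGM1 by 0.14. GPH1, the glycogen phosphorylase that breaks the polymer down, did not pass over the 11 pairs (difference -0.10). The count for the list was 3 without pair 7, 4 without pair 8 and 0 with the measured phase as a covariate.

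Some chaperone genes were lower too. Of 30 genes in a heat shock list of mainly cytosolic chaperones, 7 fell (23.3%, against 4.45% of all probe sets) and none rose. In this list 9 had a difference above 0, and the median was -0.08. HSP42, a small heat shock protein that gathers misfolded proteins, fell by 0.43, with its largest pair difference, -1.43, at 28 min. SSA3, a stress-induced Hsp70, and HSP82, an Hsp90, fell by 0.28 and 0.27 and were lower in all 11 pairs. The Hsp90 cochaperones AHA1 and STI1 fell by 0.16 and 0.10, the Hsp40 protein SIS1 by 0.16, and HSP78, which works in mitochondria, by 0.18. Without pair 7 the count was 4, and with the measured phase as a covariate it was 1, SSA3. Endoplasmic reticulum chaperones gave 1 call of 27, MPD2, a disulfide isomerase family member, at -0.17. That share, 3.70%, is near the 4.45% of all probe sets falling.

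Autophagy and mitochondrial metabolism gave fewer calls. The shares falling were 11.8% for autophagy, 20.0% for the tricarboxylic acid cycle and 7.41% for the respiratory chain, against 4.45% of all probe sets. Of 34 autophagy genes 4 fell and none rose. ATG13, a regulatory subunit of the Atg1 kinase complex, fell by 0.22 and was lower in all 11 pairs, and ATG34 fell by 0.22. ATG10 and ATG3, which conjugate Atg12 and Atg8 in turn, fell by 0.26 and 0.18. The vacuolar proteases APE1 and PEP4 fell by 0.25 and 0.08. In the tricarboxylic acid cycle list 3 of 15 genes, IDH1, KGD1 and MDH1, fell by 0.07 to 0.10. The respiratory chain list of 27 genes had 2 calls, NDE2, an external NADH dehydrogenase, at -0.36 and COX9, a cytochrome c oxidase subunit, at -0.08. Of 41 genes of peroxisomes and fatty acid oxidation 2 fell, DCI1 and the thiolase POT1, by 0.31 and 0.22, a share of 4.88% against 4.45% of all probe sets falling. Of 70 mitochondrial ribosomal protein genes 2 rose and 2 fell, 2.86% each way, below the 4.04% and 4.45% of all probe sets. RSM22 rose by 0.49 and MRPL44 by 0.20, while MRP20 and RSM10 fell by 0.18 and 0.14.

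Genes for assembling ribosomes were the largest group that was higher. Of 148 ribosome biogenesis genes, 39 rose and none fell, against 4.04% of all probe sets rising, and 137 had a difference above 0. The list's median was 0.14. IPI3, a subunit of the Rix1 complex that processes precursors of the large subunit, ran from 7.05 to 9.08 in control samples (median 7.69) and from 7.34 to 9.84 in phenelzine samples (median 8.06). The ranges overlapped, and the phenelzine sample was the higher in all 11 pairs, by 0.16 to 0.77. The rise was 1.34-fold (difference 0.42, SE 0.07, adjusted p = 0.0057 in the limma test). MAK11, needed for the large subunit, rose by 0.36, SSF2 by 0.33, NOP14, of the machinery that processes the small subunit's RNA, by 0.31, and DHR2, an RNA helicase, by 0.30. UTP4, UTP6, UTP10, UTP13, UTP18, DIP2 and NAN1, further members of that machinery, rose by 0.23 to 0.29.

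The list kept its timing. Its mean level was highest at -16 min in control samples, at 10.79, and 44 min later, at 28 min, in phenelzine samples, at 11.04. Median pair differences were above 0 in 9 of 11 pairs. They ranged from -0.19 at 20 min, in pair 6, which fell short of a full cycle by the most, to 0.38 at 32 min. The number of members called was 22 without pair 2, 18 without pair 3, 20 without pair 5, 13 without pair 7, 10 without pair 8, 19 without pair 9 and 66 without pair 6. As deposited, the list's median was 0.03 against -0.13 for all tested probe sets, and 2 members were called higher. With columns centred on their median 46 were. With the measured phase as a covariate 3 members were called, IPI3 and SSF2 among them.

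**Figure D3:**
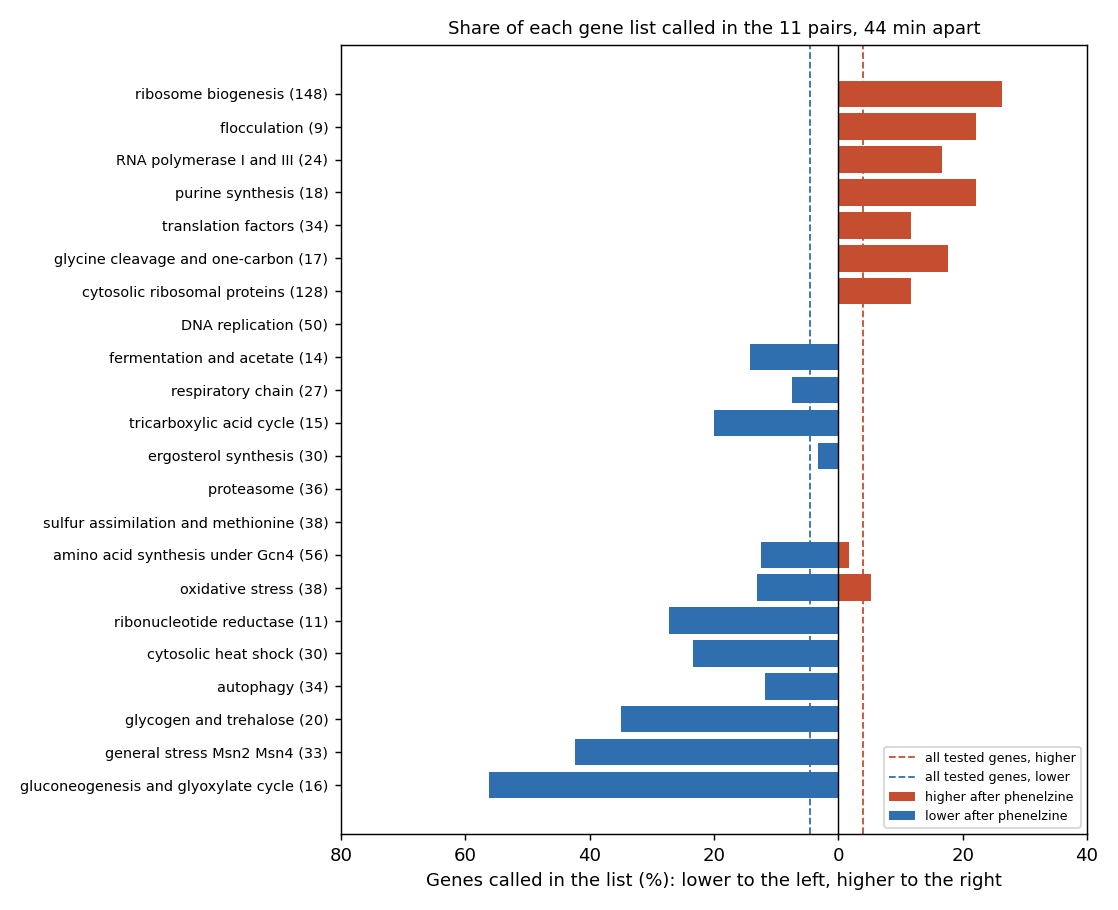
Share of the tested genes of each list that was called higher (red, to the right) or lower (blue, to the left) in the 11 pairs, with the number of tested genes in brackets; dashed lines give the shares over all tested genes. Lists with more than 10% called in either direction are shown, beside 5 lists of cycling functions with few calls or none. Gluconeogenesis, stress and reserve carbohydrate lists extend to the left, and ribosome biogenesis, RNA polymerase and purine lists to the right; as deposited, without scaling, the polymerase and purine medians were below 0.

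Functions that feed ribosome production gave a few calls each, with none falling in the next 5 lists. The shares higher were 16.7% of polymerase, 22.2% of purine, 11.8% of translation factor, 17.6% of glycine and C1 and 9.52% of synthetase genes. Of all probe sets 4.04% were higher. RNA polymerases I and III, which transcribe ribosomal and transfer RNA, had 4 of 24 genes higher. They were RPA190 and RPA135, the large subunits of polymerase I, at 0.18 and 0.17, RPC10, a subunit of all nuclear RNA polymerases, at 0.28, and RRN6, of the polymerase I core factor, at 0.14. Purine synthesis had 4 of 18: IMD4, an IMP dehydrogenase, at 0.31, ADE4, the first enzyme of the pathway, at 0.22, and PRS3 and PRS4, which make its ribose precursor, at 0.12 and 0.10. Translation factors had 4 of 34, with ANB1, a low-oxygen form of eIF5A, at 0.36, TIF5, the factor eIF5, at 0.26, TIF11 at 0.11 and YEF3 at 0.09. Glycine and C1 metabolism had 3 of 17, namely MTD1 at 0.20, MIS1 at 0.16 and GCV1 at 0.14, which make or supply C1 units. Among transfer RNA synthetases 2 of 21 rose, GRS1 by 0.07 and the cofactor ARC1 by 0.10. That list did not move as a whole: 12 of the 21 had a difference below 0, and the median was -0.004.

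Cytosolic ribosomal protein genes, whose mean level was at most 13.25 in control and 13.26 in phenelzine samples, had 15 of 128 higher and none lower. That share was 11.7%, against 4.04% of all probe sets, and the list's median was 0.02. RPS19A ran from 11.60 to 12.41 in control samples (median 12.03) and from 11.90 to 12.65 in phenelzine samples (median 12.23). It was higher in all 11 pairs, with overlapping ranges and a difference of 0.26 (SE 0.05, adjusted p = 0.0071 in the limma test). The others rose by 0.08 to 0.24, and the copies of duplicated ribosomal protein genes are so alike that a probe set may read both. With columns centred on their median 1 of the list was called, and as deposited 0 were. As deposited, the medians of the polymerase, purine, translation factor, glycine and ribosomal protein lists were all below 0, at -0.00, -0.06, -0.10, -0.08 and -0.12, and the single increases of GRS1, ARC1, YEF3, TIF11, PRS3 and PRS4 changed sign. With any 1 pair left out, 2 to 5 polymerase genes, 1 to 4 purine genes and 4 to 17 ribosomal protein genes were called. With the measured phase as a covariate the counts were 1, 0 and 1.

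Among genes of deoxynucleotide supply, RNR3 gave the smallest adjusted p of the genes named here. RNR3 encodes the minor large subunit of ribonucleotide reductase, known for its induction by DNA damage. Its level ran from 8.67 to 9.27 in control samples (median 8.94) and from 8.06 to 8.78 in phenelzine samples (median 8.49). The ranges overlapped only at their edges, and every phenelzine sample was below its partner, with pair differences from -0.75 to -0.25. The difference was -0.49 (SE 0.05, adjusted p = 0.00018 in the limma test). RNR3 was also the 1 gene called at lags of 40, 44 and 48 min. RNR1, the major large subunit, and WTM1, which holds the small subunit in the nucleus, each fell by 0.13. Thus 3 of 11 genes of this list fell, 27.3% against 4.45% of all probe sets. In the limma test 0 of 50 DNA replication genes and 0 of 10 histone genes were called, against 8.49% of all probe sets. Their medians were 0.01 and 0.02, and 10 and 2 of them had an unadjusted p under 0.05.

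Some transport and surface genes also differed. FKS1, a catalytic subunit of the glucan synthase that builds the cell wall, ran from 10.52 to 11.26 in control samples (median 10.96) and from 10.52 to 11.96 in phenelzine samples (median 11.58). The ranges overlapped, and FKS1 was higher in 9 of 11 pairs, and lower in pairs 6 and 10, at -0.16 and -0.11. Its difference was 0.56 (SE 0.10, adjusted p = 0.0071 in limma). In the cell wall list of 31 genes the other call was PIR1, at -0.15. The shares of this list, 3.23% each way, were below the 4.04% and 4.45% of all probe sets. PDR5, a pump that exports many drugs, ran from 11.22 to 11.56 in control samples (median 11.33) and from 11.16 to 12.03 in phenelzine samples (median 11.69). The difference was 0.28 (SE 0.05, adjusted p = 0.0092 in limma), and although the ranges overlapped, from 12 min on every phenelzine sample was the higher. PDR5 was the 1 call among 33 multidrug resistance genes, 3.03% higher against 4.04% of all probe sets. SNQ2 (0.01), TPO1 (0.07) and FLR1 (-0.09), further exporters, did not pass.

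HXT2, a glucose transporter of high affinity, rose by 0.30, while HXT5, a transporter of slowly growing cells, fell by 0.48. They were the 2 calls among 15 hexose transporter genes, 6.67% each way. Of all probe sets 4.04% were higher and 4.45% lower. The ferric reductase FRE1 rose by 0.28 and the siderophore transporters ARN1 and ENB1 by 0.08 each, although both transporters were below 0 as deposited. These were the 3 calls among 30 iron regulon genes (10% higher), a list with a median of 0.02 and 10 genes below 0. CTR3, a copper transporter, rose by 0.25 and was the 1 call among 18 copper and zinc genes (5.56% higher). That list leaned the other way, with 13 genes below 0 and a median of -0.05. The flocculins FLO1 and FLO9 rose by 0.31 and 0.19, but the probe set of FLO9 is one that may match several near-identical genes. They were 2 of 9 genes in the flocculation list (22.2% higher).

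Lists for amines and vitamin B6 are short, and 8.49% of all probe sets were called, so few calls in them say little. Of 14 genes of polyamines and amine oxidation 1 was called (7.14%), PTK2, a kinase that regulates polyamine uptake, at -0.18. FMS1, the polyamine oxidase, had a difference of -0.13 that did not pass (adjusted p = 0.11 in limma). In limma 0 of 9 vitamin B6 genes were called, and 3 had an unadjusted p under 0.05, as had 26.8% of all probe sets. Sulfur assimilation and methionine genes, among the most strongly cycling, gave 0 calls of 38 in limma, with 6 at an unadjusted p under 0.05 and a median of -0.03, and MET3, ATP sulfurylase, had a difference of -0.12 (adjusted p = 0.59 in limma). In all, 11 of the 52 lists had no member called, among them the proteasome, amino acid permeases, fatty acid synthesis, sphingolipids, thiamine, mating, and meiosis and sporulation, although 1 to 10 members of each had an unadjusted p under 0.05. Amino acid synthesis under the regulator Gcn4 had 7 of 56 lower (12.5%, against 4.45% of all probe sets), among them LYS1 at -0.25 and ILV1 at -0.18. In that list 1 was higher, BAT2, at 0.10. The actin gene ACT1 had a difference of -0.01.

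The largest single increase was that of a probe set for YAR009C, part of a Ty1 retrotransposon, which may read several copies of the element. Its level ran from 6.19 to 7.64 in control samples (median 6.79) and from 6.99 to 9.07 in phenelzine samples (median 7.81). The ranges overlapped. It was higher in 9 of 11 pairs, all but pairs 10 and 11, and its difference was 1.00 (SE 0.18, adjusted p = 0.0089 in limma). PUF3, an RNA-binding protein that controls messages for mitochondrial proteins, rose by 0.60, BNR1, a formin, by 0.44, and ATP19, a subunit of the ATP synthase, by 0.31. YPR071W, the 1 called gene whose groups did not overlap, lay between 7.47 and 7.81 in control and between 7.86 and 8.42 in phenelzine samples, with a difference of 0.41 (adjusted p = 0.0057 in limma). Among the largest falls beside PCK1 were GAS2, a glucanosyltransferase of the spore wall, by 0.61, GIP2, which binds the phosphatase Glc7, by 0.58, and RTC3 by 0.55. Of the 128 named genes that passed, 55 passed whichever single pair was left out.

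The 3 stretches of the cycle were then tested separately, all within 1 further limma fit. In pairs 1 to 4 (0 to 12 min) 92 probe sets were called (1.71%), 54 of them higher (1.01%) and 38 lower (0.707%). In pairs 5 to 8 (16 to 28 min) 273 were called (5.08%), 139 of them higher (2.59%) and 134 lower (2.49%). In pairs 9 to 11 (32 to 40 min) 474 were called (8.82%), 213 of them higher (3.97%) and 261 lower (4.86%). The early and middle stretches shared 24 of the higher calls (of 54 and 139) and 13 of the lower calls (of 38 and 134). The early and late stretches shared no higher call and 2 lower ones. Against this, 7 probe sets were higher early and lower late, and 1 was lower early and higher late. Only 4 probe sets were called in all 3, counted whatever their direction in each. By an F test in limma the difference depended on the stretch for 303 probe sets (5.64%). The division was fragile: with limits moved by 1 pair (pairs 1 to 3, 4 to 7 and 8 to 11) the counts were 1, 21 and 586. The late count was 63 without pair 9 and 75 without pair 10.

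List medians by stretch are given with no test between stretches or lists. Of all probe sets 1.01%, 2.59% and 3.97% were higher in the early, middle and late stretches. In turn 0.707%, 2.49% and 4.86% were lower. Gluconeogenesis genes had medians below 0 in all 3 stretches, -0.16 early, -0.07 in the middle and -0.19 late, and 0 of 16 had a stretch-dependent difference by the F test in limma. Stress genes went from -0.09 early and -0.12 in the middle to -0.27 late, where 13 of 33 fell and 1 rose. Glycogen and trehalose genes went from -0.07 and -0.09 to -0.29, with 9 of 20 lower in the late stretch. Autophagy genes followed, with a late median of -0.17 and 8 of 34 lower, and 8 of 36 proteasome genes fell in the late stretch although none was called over all pairs. In the opposite direction, ribosome biogenesis genes had medians of 0.08, 0.12 and 0.25, with 2, 6 and 44 members higher in turn and 1, 1 and 2 lower, but the F test called 9 of the 148, against 5.64% of all probe sets. It called 3 of 33 stress genes, 3 of 20 glycogen and trehalose genes, 3 of 34 autophagy genes, 4 of 36 proteasome genes and 3 of 18 purine genes. Purine synthesis genes went from -0.04 through 0.06 to 0.18, with 7 of 18 higher in the late stretch. Late differences lay in pairs whose phenelzine sample fell short of a full cycle by 1.10 to 1.85 min, and 2 of the 3 pairs, 9 and 10, were those with a higher ACT1 ratio after phenelzine. The part of either in the stretches was not tested.

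**Figure D4:**
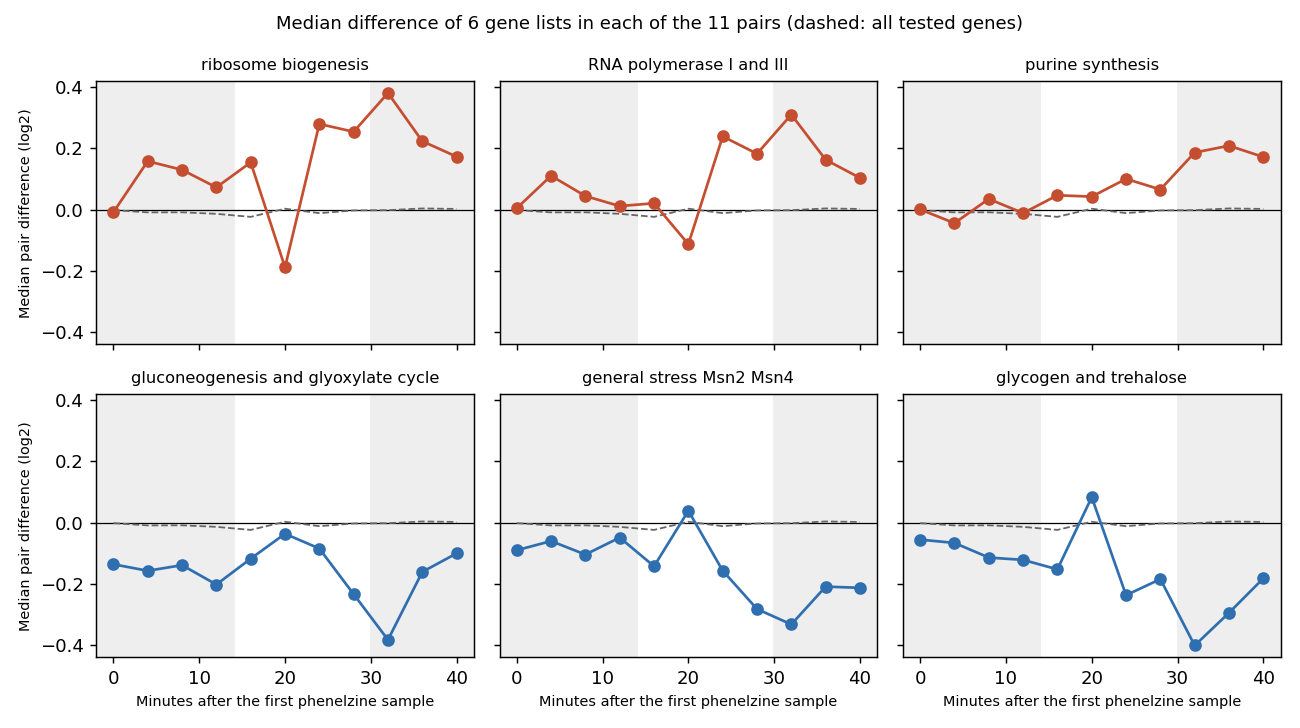
Median pair difference (log2, phenelzine minus control) of 6 gene lists in each of the 11 pairs against minutes after the first phenelzine sample; the dashed line is the median of all tested genes, and grey bands mark the early and late stretches. Ribosome biogenesis is highest at 32 min (0.38) and below 0 at 20 min (-0.19), and the glycogen and trehalose list is lowest at 32 min (-0.40).

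For some lists and genes the difference changed in size or sign from stretch to stretch. Sulfur assimilation genes had a median of -0.12 early and 0.09 late. Of these 38 genes 2 were called lower early and 4 higher late, against 0.707% and 3.97% of all probe sets. The F test called 2 of the 38, near the 5.64% of all probe sets. MHT1, which makes methionine from S-methylmethionine, was lower early (-0.68) and higher late (0.63). GCV2, a subunit of glycine decarboxylase, had differences of -0.13 early, 0.24 in the middle and 0.38 late, of which the latter 2 passed. In its list 6 of 17 genes were higher late, against 3.97% of all probe sets. ADH2, an alcohol dehydrogenase repressed by glucose, was lower early (-0.78) and had a difference of -0.00 late. HXT5 had differences of -0.22, -0.37 and -0.96, and SPG4, a gene needed in stationary phase, of -0.10, -0.27 and -0.95. PDR5 passed in the middle (0.40) and late (0.35) stretches but not early (0.10), and a difference of PDR5 between stretches did not pass (adjusted p = 0.11 by the limma F test).

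The calls were also set against the point at which each gene peaked in the following cycle, read from phenelzine samples 12 to 23, which were not in the comparison. The peak was the sample with the highest running mean, taken over that sample and its direct neighbours. Probe sets that peaked at 72, 76 or 80 min, a grouping made after the values were seen, made up most of the higher calls: 128 of these 1416 were higher (9.04%) and 8 lower. Among the 3956 with a peak at other times, 89 were higher (2.25%) and 231 lower (5.84%). The tilt did not consist of ribosome biogenesis genes alone, since 89 of the 1271 others with this peak were higher (7.00%) and 8 lower. Of the 148 ribosome biogenesis genes 145 peaked there. The largest share of lower calls, 8.04% of 634, was in probe sets highest at 88 min, the last of these samples and the time of PCK1, ADY2, MDH2 and ACS1, and 6.86% of 437 were lower at 60 min, the time of CTT1.

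**Figure D5:**
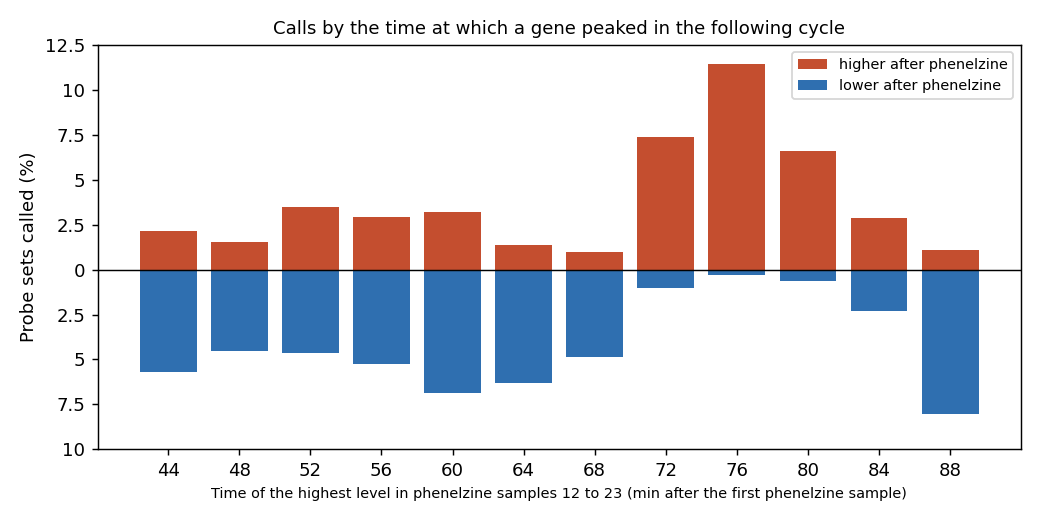
Percentage of tested probe sets called higher (red, upward) or lower (blue, downward) in the 11 pairs, by the time of their highest running mean over neighbouring samples in phenelzine samples 12 to 23, in minutes after the first phenelzine sample. Higher calls gather at 72 to 80 min, with 11.4% at 76 min, and lower calls reach 8.04% at 88 min.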

How the data were processed

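Biotin-labelled RNA of each of the 48 samples was hybridised to 1 Affymetrix Yeast 2.0 array. The authors deposited a linear signal intensity for each of 10928 probe sets. GCOS is the program in the submitters' processing notes, but not its version, target value or any later scaling. Gene names come from the platform annotation, updated with the R64 table. Of the probe sets 5498 had a budding yeast gene, 1747 a fission yeast gene, 3517 were unnamed and 166 were spiked or control sets.

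From these intensities, floored at 1, log2 values were computed and quantile normalized over all 48 arrays. Budding yeast probe sets were tested where their mean exceeded the 90th percentile of the fission yeast sets, which left out 126 as dim. Pairs were made from the labelled hours. Same-numbered samples deviated together from their group means (correlations of 0.52 to 0.80 in the 11 pairs), and the pair was a block in the test, because both samples of a pair share a point of the cycle. All fits were made in R 4.3.3 with limma 3.58.1 (lmFit and eBayes with a mean-variance trend), with a Benjamini-Hochberg adjusted p under 0.05 over all 5372 probe sets. The stretches of the cycle were coefficients of a separate fit with the same pair block, and contrasts between them were tested by an F test.

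The members and the 52 gene lists were chosen with earlier results of these data known, so lists get counts and medians and no test. A list uses 1 probe set a gene, that of highest mean. Named genes were the 15 largest differences each way, the 6 largest each way in each stretch, the 6 smallest p-values of the F test, up to 4 called members of each list, and 20 genes by name. Beyond this rule, further called list members were named after their values were seen. Alternatives were scalings, a pseudocount of 50, filters, no trend, no pair block, other lags, stretches as a random block, other stretch limits, a cosine in place of stretches, each pair left out, and the measured phase as a covariate. Leave-one-out counts for the stretches and counts of list members were added after the data were seen. Python 3.11.15 and matplotlib 3.10.9 made the figures. No sequences were analysed here.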

Additional observations from a re-analysis of the deposited data

Results flagged for a closer look

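The difference between the cycles depended on the stretch of the cycle for 303 probe sets (5.64%) by the limma F test with Benjamini-Hochberg adjustment. In 175 of them the late difference was below the early one, and 122 of these peaked at 52 to 60 min, where 1598 of all 5372 probe sets peaked. In the other 128 it was above, and 58 of these peaked at 76 to 84 min, where 1293 of all did. With 1 pair left out the count ran from 1 (without pair 10) to 574 (without pair 6). It was also 7 without pair 9, 142 without pair 1, 79 without pair 2, 86 without pair 3, 81 without pair 4, 119 without pair 11 and 501 without pair 5.

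Of the 160 named genes 21 were in this set. The values below are late minus early differences on the log2 scale. Among genes of reserve carbohydrate and late growth, it was -0.63 for GPH1, glycogen phosphorylase, -0.44 for GSY2, a glycogen synthase, -0.74 for HXT5, -0.85 for SPG4 and -0.45 for NDE2. It was 0.51 for GCV2, 0.32 for GCV1 and 0.22 for GCV3, the subunits of glycine decarboxylase, and 1.31 for MHT1. For genes of mitochondrial ribosomes it was -0.72 for RSM22 and 0.35 for MRP20. It was 0.78 for ADH2, 0.62 for ERV46, of vesicles between endoplasmic reticulum and Golgi, and 1.45 for EDC1, which aids removal of the messenger cap. Further values were -1.16 for DYN3, a dynein chain, -1.11 for BLI1, -1.03 for UIP4, -0.80 for RTT103 and -0.73 for LOC1, which acts in ribosome assembly. It was -3.80 for HXT9 and -0.63 for YHR054C, whose probe sets may match several near-identical genes. The value of HXT9 is not a measured size, since it rests on levels below the brightness limit of 3.01 set for a mean. They were 2.46, 2.12 and 2.90 in control pairs 2 to 4 and 2.55 and 2.49 in phenelzine pairs 10 and 11.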

How the results depend on the processing

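Over all pairs the count of 456 was 948 as deposited, 4 and 9 at lags of 40 and 48 min, 6 with the stretches as a random block, 44 with the measured phase as a covariate, and 161 (without pair 8) to 625 (without pair 10) with 1 pair left out. The paired design carried it: with no replicate block, 1 probe set was called, and 344 had an unadjusted p under 0.05. With the median-centred columns 397 were called, and without the mean-variance trend 311. For the early, middle and late stretches in turn, with 92, 273 and 474 calls, the counts were 15, 919 and 839 as deposited, 1, 88 and 33 at 40 min, 607, 500 and 6 at 48 min, and 1, 21 and 586 with other limits. Early, it was 33 with median-centred columns. Early and middle, it was 26 and 152 without the trend. With 1 pair left out they ran from 0 to 336, from 0 to 752 and from 63 to 645. The early count was 12, 0, 2 and 1 without pairs 1 to 4, 336 without pair 5, 269 without pair 6, and 48, 44 and 59 without pairs 8, 9 and 11. The middle count was 178 and 171 without pairs 2 and 3, 53, 752, 1 and 0 without pairs 5 to 8, and the late count 63 and 75 without pairs 9 and 10. The 303 stretch-dependent probe sets became 60 without the trend, 0 at 40 min, 859 at 48 min, 28 with other limits, 507 with a cosine, and 1 to 574 with 1 pair left out.

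Sign changes were counted only for named genes that passed in the main fit or in the alternative one. As deposited, where the median of tested probe sets was -0.13, the differences of 10 such genes changed sign: GRS1 (-0.0628), ARN1 (-0.0518), ENB1 (-0.083), YEF3 (-0.0764), PRS4 (-0.0426), ARC1 (-0.0391), TIF11 (-0.0375), PRS3 (-0.0104), DAL5 (-0.00184) and TOM22 (-0.00461). No other setting reversed such a gene, and sign changes of named genes that passed in neither fit were not counted. The causes were not tested. Limits are the 1 culture, the 4-min sampling step against phase shifts of up to 2.50 min, and neighbouring time points that need not be independent.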
